A study of Mus musculus with 88 samples.

Results

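The endoplasmic reticulum (ER) is where proteins bound for the cell surface, the lysosome or secretion are threaded through a membrane, given sugars and folded. Its folding and translocation machinery was described here as 40 listed genes. They comprise chaperones of the Hsp70 and Hsp90 kind, lectin chaperones with the enzymes that trim glucose, disulfide isomerases, prolyl isomerases, the signal recognition particle receptor, translocon and signal peptidase, the oligosaccharyltransferase and cargo receptors. A member was a protein group of the trypsin table whose first gene name was on the list. Of the 40 genes 39 were found among 5899 protein groups, and 31 of them had both label ratios in all 42 runs. Srprb was not found. Of the 39, 34 had enough values for every comparison of LPS with mock after 5 h, while Dad1, Stt3b, Sec63, Ssr1 and Sil1 did not.

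The cells were dendritic cells grown with GM-CSF from bone marrow of female C57BL/6J mice, and all of them were pooled before stimulation. On culture day 9 they received 100 ng per ml of LPS, the cell wall lipid of E. coli, or no stimulus (mock). All groups shared the same labelling: protein made before 0 h carried medium amino acids (M), protein made after the switch of medium at 0 h carried heavy ones (H), and unlabelled cells (L) were mixed into each run as reference. Runs were made at 0 h and, under each treatment, at 0.5 h, hourly from 1 to 6 h and at 9, 12 and 24 h, with 2 replicates per group, which gave 84 trypsin samples (M and H of 42 runs). A further 2 samples each were digested with AspN and LysN, for a total of 88. Within each run M/L measured pre-existing protein, H/L new protein and their sum total protein, each scaled by a run factor, the median sum of both ratios among 2628 proteins with M/L in every run, while H/M was used as deposited. The scaled ratios therefore show a member relative to the other proteins of its run. Nothing in the labels says that the replicates came from separate cultures, so the p-values reflect how far these samples scatter, and part or all of that scatter may be technical. In such bulk samples fewer cells of a type and less protein per cell cannot be told apart.

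The M/L ratios of a run rested on 68083 to 109064 peptide pairs. Of 14 dendritic markers 10 were measured (Batf3, Ccr7, Cd80 and Flt3 were not), as were all 11 granulocyte, 9 of 10 macrophage and 3 of 6 erythroid and platelet markers. None of 11 lymphocyte and plasma cell markers was measured. The heavy channel was not empty at 0 h: the median H share of M plus H was 13.9% over all proteins and 10.8% over the members. That signal lies under every H/L and H/M value below.

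In textbook outline a nascent chain enters through the Sec61 channel, loses its signal peptide to signal peptidase and receives glycans from the oligosaccharyltransferase. Inside the lumen Hspa5 (BiP), calnexin and calreticulin hold it until disulfide isomerases have joined its cysteines. When unfolded protein accumulates, the unfolded protein response raises transcription of many of these genes through ER stress elements in their promoters. In dendritic cells the same compartment loads peptides on MHC molecules and folds Toll-like receptors, the latter with the help of Hsp90b1.

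The members differed widely in abundance at 0 h, when iBAQ (intensity over the count of theoretical peptides) was taken as its share of all proteins in ppm. The disulfide isomerase Pdia3 stood at 2401 and 2441 ppm in the 2 replicates, P4hb, the founding member of that family, at 2514 and 2050 ppm, and Hspa5 at 2197 and 2196 ppm. Hsp90b1, the Hsp90 of the ER, stood at 1951 and 1807 ppm and the lectin chaperone Calr at 1428 and 1367 ppm. Membrane subunits ranged widely: the channel subunit Sec61b had 93.2 and 168 ppm, the transferase subunits Ddost 141 and 89.6 ppm and Rpn1 87.7 and 59.4 ppm, the channel subunit Sec61a1 24.8 and 16.8 ppm, and the catalytic Stt3a 6.97 and 1.70 ppm. Some soluble members were as scarce, such as the Hspa5 partners Dnajb11 (12.0 and 33.1 ppm) and Dnajc3 (33.4 and 26.5 ppm). The digest mattered for single members, since Rpn1 had 305 and 358 ppm with AspN and 179 and 298 ppm with LysN. Replicates of the abundant members lay close together, while those of Stt3a lay several fold apart. The 38 members with an iBAQ value made up 1.52% of the summed iBAQ, with a median of 97.7 ppm against 6.65 ppm over all proteins. The AspN and LysN digests, which measured 33 and 34 members, gave 2.27% and 2.20%. The median number of peptide pairs behind a ratio ran from 258 per run for Hspa5, 243.5 for Hsp90b1 and 218 for Pdia3 to 42.5 for Rpn1, 3.5 for Stt3a and 2.5 for Sec61a1. Sec61a1 rested on 2 unique peptides shared between 2 gene names.

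Late after LPS, over 6, 9 and 12 h, pre-existing protein of the soluble folding machinery was lower than in mock cells, and that of the membrane machinery did not pass the test. The median M/L over the soluble members was 0.807 and 0.821 in the 0 h runs. Late mock runs lay above both (0.834 to 0.922), and LPS runs at 6 h close to them (0.818 and 0.801). At 9 and 12 h LPS runs lay below both (0.712 to 0.764). M protein was made before 0 h, so the higher mock values are no gain by synthesis, and their source was not tested. In comparisons of LPS with mock a fall or rise is against mock cells, not against 0 h. In limma's test 17 of 34 members fell and none rose, while 17.1% of all 3432 proteins tested passed (13.6% lower, 3.53% higher). The median difference was -0.18 over the members and -0.020 over all proteins, on the log2 scale of LPS over mock. In 9 members the 6 LPS runs lay below the 6 mock runs without overlap, which held for 5.22% of all proteins. The plot of median M/L by run sets the soluble members beside the membrane members over the time course.

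**Figure D1:**
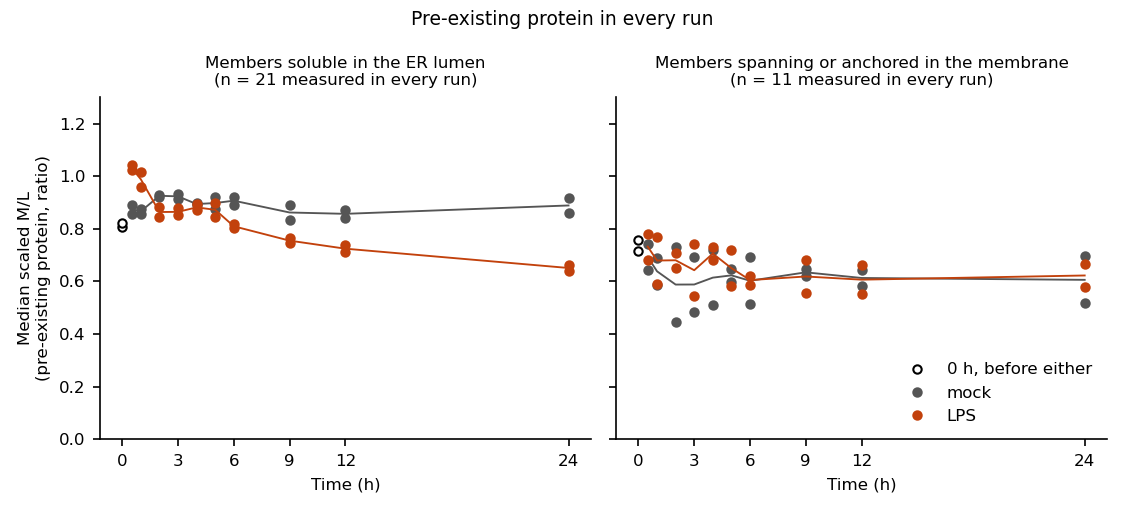
Median scaled M/L (pre-existing protein over the light reference, a ratio on a linear axis from 0) in each of the 42 runs against time in hours, over the 21 soluble members (left) and the 11 membrane members measured in every run (right). Points are runs (open for 0 h), and lines join the means of the 2 replicates. The soluble medians over 6 to 12 h lay at 0.712 to 0.818 in LPS runs, below the 0.834 to 0.922 of mock runs, and the membrane medians overlapped.

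Among the chaperones of the Hsp70 and Hsp90 system, Hspa5, the lumenal Hsp70, had scaled M/L values of 0.714 to 0.783 (median 0.749) in the 6 mock runs and 0.575 to 0.679 (median 0.635) in the 6 LPS runs. The groups did not overlap, and Hspa5 fell by 0.25 ± 0.033 (SE, n = 6 per arm; limma adjusted p = 1.14e-05), a fold of 0.844. Hsp90b1 lay at 0.806 to 0.870 (median 0.818) in mock and 0.664 to 0.766 (median 0.733) in LPS runs, again apart, with a difference of -0.18 ± 0.034 (limma adjusted p = 0.000384). The J-domain partner of Hspa5, Dnajb11, lay at 0.944 to 1.04 (median 0.992) in mock and 0.814 to 0.925 (median 0.843) in LPS runs without overlap, a difference of -0.21 ± 0.049 (limma adjusted p = 0.00305). Manf, a secreted protein induced by ER stress, lay at 0.933 to 1.05 (median 1.02) against 0.836 to 0.954 (median 0.892), with overlap (-0.16 ± 0.036, limma adjusted p = 0.00209). Of the 7 tested in this class those 4 fell. The others were Dnajc3 (-0.25 ± 0.10, limma adjusted p = 0.114), Sdf2l1 (-0.20 ± 0.074, adjusted p = 0.0614) and the nucleotide exchange factor Hyou1 (-0.18 ± 0.065, adjusted p = 0.0531).

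In the lectin chaperone and glucose trimming class 4 of 5 fell. Prkcsh, the regulatory subunit of glucosidase II, lay at 0.825 to 0.942 (median 0.849) in mock and 0.671 to 0.798 (median 0.714) in LPS runs, apart from each other, and fell by 0.26 ± 0.037 (limma adjusted p = 2.55e-05). Its catalytic partner Ganab lay at 0.772 to 0.832 (median 0.783) and 0.623 to 0.738 (median 0.691), also apart, and fell by 0.21 ± 0.039 (limma adjusted p = 0.000298). Both subunits of this enzyme were thus lower. Calr lay at 0.829 to 0.904 (median 0.886) in mock and 0.718 to 0.825 (median 0.750) in LPS runs without overlap (-0.20 ± 0.033, limma adjusted p = 0.000130). Uggt1, which puts glucose back on misfolded glycoproteins, overlapped at 0.853 to 1.02 (median 0.985) and 0.774 to 0.995 (median 0.860), with -0.15 ± 0.046 (limma adjusted p = 0.0279). The membrane-bound calnexin (Canx), which binds the same glycans as the soluble calreticulin, lay at 0.450 to 0.674 (median 0.577) in mock and 0.489 to 0.698 (median 0.571) in LPS runs, which overlap over most of their range. Its difference was 0.064 ± 0.17 (limma adjusted p = 0.875), with a standard error close to the size of the difference of Calr (0.066 with the replicate number as a block).

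All 8 disulfide isomerases, relatives and the oxidase fell. P4hb lay at 0.935 to 1.03 (median 0.978) in mock and 0.796 to 0.934 (median 0.850) in LPS runs, just apart, with -0.19 ± 0.033 (limma adjusted p = 0.000202). Pdia4, which has several thioredoxin-like domains, lay at 0.968 to 1.07 (median 1.01) and 0.838 to 0.971 (median 0.884), which overlap at the edge (-0.18 ± 0.029, limma adjusted p = 5.64e-05). Pdia3, the partner of calnexin and calreticulin, overlapped slightly at 0.843 to 0.922 (median 0.871) and 0.734 to 0.845 (median 0.775), with -0.17 ± 0.033 (limma adjusted p = 0.000629). The standard errors of these 3 abundant isomerases overlap. Pdia6 lay at 0.818 to 0.891 (median 0.868) against 0.696 to 0.818 (median 0.771), which meet without overlap (-0.17 ± 0.035, limma adjusted p = 0.00134). Txndc5 lay at 0.765 to 0.890 (median 0.806) against 0.646 to 0.755 (median 0.724), apart (-0.20 ± 0.047, limma adjusted p = 0.00325).

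Erp29, a relative of the isomerases without their active-site cysteine pair, had the lowest estimate of the 34 members. It lay at 0.815 to 1.03 (median 0.931) in mock and 0.669 to 0.841 (median 0.750) in LPS runs, with a small overlap, and differed by -0.30 ± 0.062 (limma adjusted p = 0.00107). Erp44, which returns clients from the Golgi, lay at 0.673 to 0.786 (median 0.711) against 0.549 to 0.706 (median 0.622), with overlap (-0.22 ± 0.071, limma adjusted p = 0.0345). The oxidase Ero1l (now named Ero1a) lay at 1.05 to 1.22 (median 1.12) against 0.941 to 1.13 (median 1.02), also with overlap (-0.14 ± 0.046, limma adjusted p = 0.0302). Of the prolyl isomerases Ppib (cyclophilin B) fell, from 0.893 to 1.06 (median 0.997) in mock to 0.762 to 0.920 (median 0.883) in LPS runs with overlap (-0.19 ± 0.058, limma adjusted p = 0.0227), and Fkbp2 stood at -0.14 ± 0.052 (adjusted p = 0.0641).

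None of the 12 tested members for targeting, translocation, signal peptide removal, glycan transfer and cargo transport passed. Rpn1 lay at 0.514 to 0.642 (median 0.580) in mock and 0.551 to 0.619 (median 0.577) in LPS runs, the latter inside the former, with a difference of 0.012 ± 0.087 (limma adjusted p = 0.956). Sec61b, the small subunit of the channel, lay at 0.346 to 0.441 (median 0.368) and 0.296 to 0.530 (median 0.407), with 0.11 ± 0.11 (limma adjusted p = 0.580). Sec61a1, measured in 5 of 6 mock and 6 of 6 LPS runs, lay at 0.325 to 0.505 (median 0.422) and 0.394 to 0.764 (median 0.625), with 0.48 ± 0.26 (limma adjusted p = 0.254). Stt3a, measured in 6 mock and 5 LPS runs, lay at 0.321 to 0.558 (median 0.397) and 0.344 to 0.669 (median 0.421), with 0.30 ± 0.43 (limma adjusted p = 0.743). All 4 overlap between treatments. The lowest of the 12 estimates was that of Spcs3, a signal peptidase subunit (-0.26 ± 0.10, adjusted p = 0.0857), and the highest that of Sec61a1. The plot of differences by class shows all 34 with their errors.

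**Figure D2:**
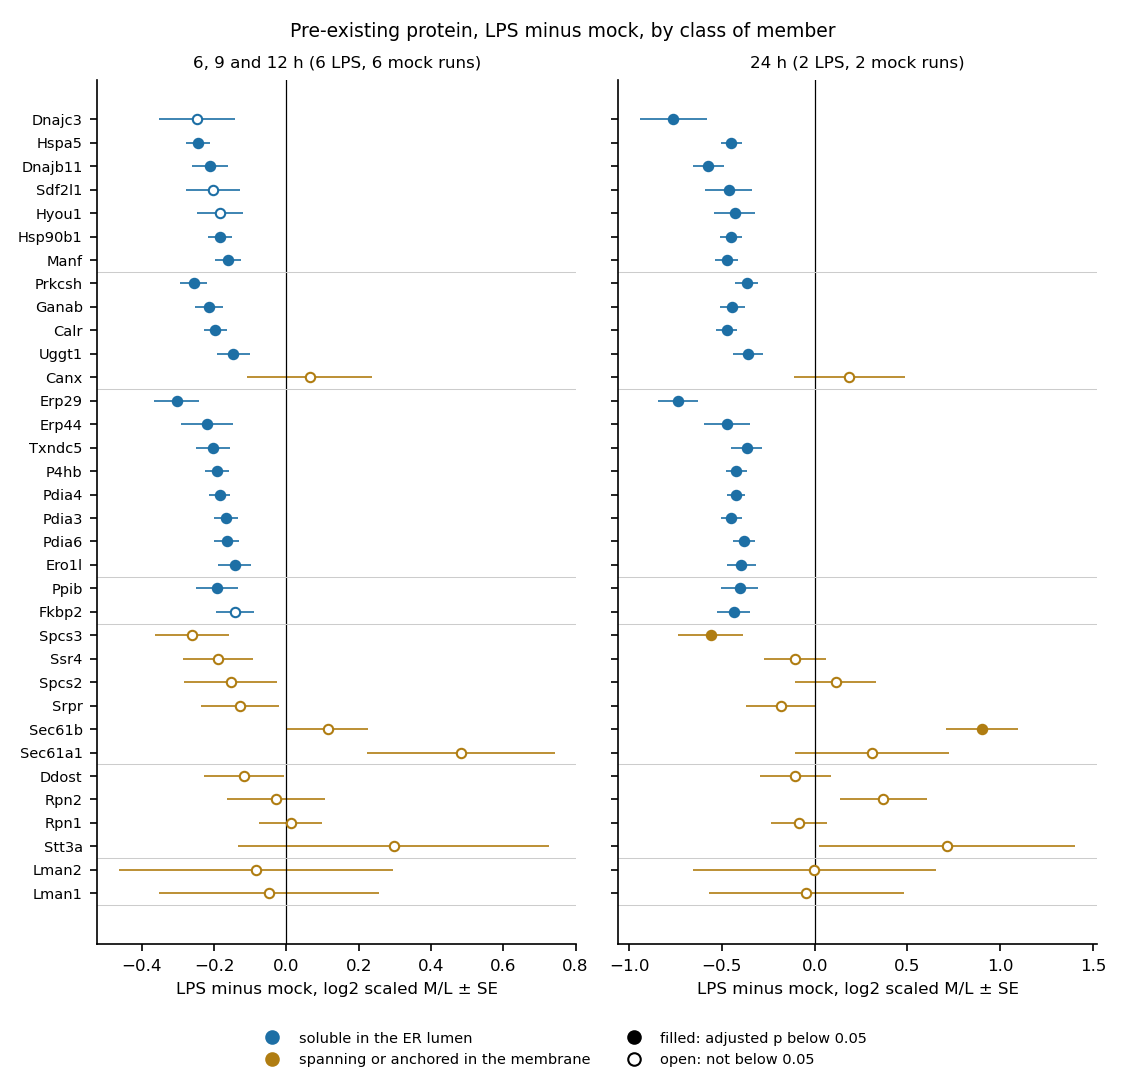
Difference in pre-existing protein (log2 scaled M/L, LPS minus mock) of the 34 tested members over 6 to 12 h (left) and at 24 h (right, on a wider axis), with grey lines between classes, bars of 1 standard error, blue for soluble and ochre for membrane members, and filled points for adjusted p under 0.05. All 21 soluble members sit left of 0 in both windows, and membrane members lie on both sides of it. Of all proteins 1805 of 3324 lay below 0 at 6 h, 1728 of 3096 at 9 h, 1786 of 3127 at 12 h and 1815 of 3136 at 24 h.

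A grouping by topology was added after the values had been seen. Of 21 members soluble in the lumen 17 fell, with a median of -0.19, and of 13 that span or are anchored in the membrane none passed, with a median of -0.048 and a median standard error of 0.13 against 0.046. The median M/L over the 21 soluble members was 0.834 to 0.922 (median 0.881) in the 6 late mock runs and 0.712 to 0.818 (median 0.755) in the 6 late LPS runs, which did not overlap. Over 11 membrane members present in every run it was 0.514 to 0.691 (median 0.633) and 0.552 to 0.680 (median 0.605), which did. The membrane medians differed by replicate number within a treatment: in mock runs they were 0.691 and 0.514 at 6 h and 0.696 and 0.516 at 24 h for replicates 1 and 2, and in LPS runs 0.622 and 0.588 and 0.665 and 0.580. With the replicate number as a block Hyou1, Sdf2l1 and Fkbp2 also fell in pre-existing protein late (limma adjusted p = 0.0122, 0.0275 and 0.00304), and no membrane member passed. Within runs the log2 ratio of P4hb to Rpn1 in M/L was 0.76 ± 0.10 (SD, n = 6) in mock and 0.56 ± 0.13 in LPS runs, and that of Hsp90b1 to Canx 0.56 ± 0.21 and 0.31 ± 0.19. These pairs were chosen after their values were seen, and whether soluble and membrane members differ in their response was not tested.

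These directions are relative to the other proteins of a run. Without the run factor the median of all proteins itself moved to 0.15, 20 of 3432 proteins passed and no member did, and Pdia6, Manf, Uggt1 and Ero1l then stood just above 0. The log2 factor of the LPS 12 h replicate 2 was 0.692, against -0.0461 to 0.0816 in the other late runs of replicate 2. In late runs of replicate 1 it was -0.533 to -0.462. The part of this run and of this offset in the change was not tested. From ratios of summed intensities 7 members fell, a count given without the share of all proteins in that setting. Leaving out 1 of the 12 late runs ended the calls of Erp44, Ppib, Uggt1 and Ero1l (6 runs each, adjusted p up to 0.120, 0.103, 0.106 and 0.131) and of no other of the 17. Leaving out either replicate number throughout leaves 3 runs per arm and 1 run in each group. No scatter within groups is then left, and the spread was taken from how the difference varies among the 3 times. That leaves few degrees of freedom, so calls cannot show whether the change rests on a single replicate number. The median difference of the members in pre-existing protein late was -0.20 without replicate 1 and -0.14 without replicate 2. Over all proteins it was -0.016 and -0.027.

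Total protein moved likewise, where a fall means lower than in mock cells. Over the soluble members the median total was 0.889 and 0.874 in the 0 h runs. It was 0.964 to 1.005 in late mock runs, above both, and 0.851 to 0.911 in late LPS runs, around them. Late after LPS 15 of 34 members fell in total protein and none rose, against 19.8% of 3316 proteins passing (9.59% lower, 10.2% higher), with medians of -0.15 over members and 0.000 over all. In 12 members LPS runs lay below mock runs without overlap, against 4.61% of all proteins. By class the 15 that fell in limma's test were 5 of 7 in the Hsp70 and Hsp90 system, 3 of 5 lectin chaperones and trimming enzymes, 6 of 8 isomerases and their relatives and 1 of 2 prolyl isomerases, with none of the 12 others. Prkcsh lay at 0.922 to 1.02 (median 0.939) in mock and 0.765 to 0.857 (median 0.800) in LPS runs, apart, and fell by 0.25 ± 0.034 (limma adjusted p = 4.76e-06). Erp29 lay at 0.925 to 1.15 (median 1.05) and 0.765 to 0.913 (median 0.834), apart, and fell by 0.32 ± 0.058 (limma adjusted p = 0.000165). P4hb lay at 1.03 to 1.11 (median 1.08) and 0.866 to 1.01 (median 0.937), apart, with -0.19 ± 0.033 (limma adjusted p = 9.37e-05). Hsp90b1 lay at 0.900 to 0.965 (median 0.916) and 0.753 to 0.860 (median 0.826), apart, with -0.17 ± 0.035 (limma adjusted p = 0.000984). The estimate of Hspa5 was smaller in total than in pre-existing protein. It lay at 0.835 to 0.886 (median 0.850) in mock and 0.708 to 0.818 (median 0.795) in LPS runs without overlap, and fell by 0.13 ± 0.035 (limma adjusted p = 0.00873, and 0.0510 without the LPS 9 h replicate 2).

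Sdf2l1, a partner of Dnajb11, passed in total but not in pre-existing protein, at 1.09 to 1.32 (median 1.13) in mock and 0.933 to 1.20 (median 0.992) in LPS runs with overlap (-0.19 ± 0.066, limma adjusted p = 0.0469). Leaving out 1 of the 12 runs ended the calls of Sdf2l1 (7 runs, adjusted p up to 0.191), Ppib (6 runs, up to 0.105) and Manf (mock 9 h replicate 2 or mock 12 h replicate 2, up to 0.0683). Without the run factor no member passed and Hspa5, Ppib, Pdia3, Pdia6 and Manf stood above 0, at most at 0.042, against an all-protein median of 0.17. From summed intensities 3 members fell, and with the replicate block Erp44 and Hyou1 fell too (limma adjusted p = 0.00162 and 0.00962). The shares of all proteins in these 2 settings are not given here.

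**Figure D3:**
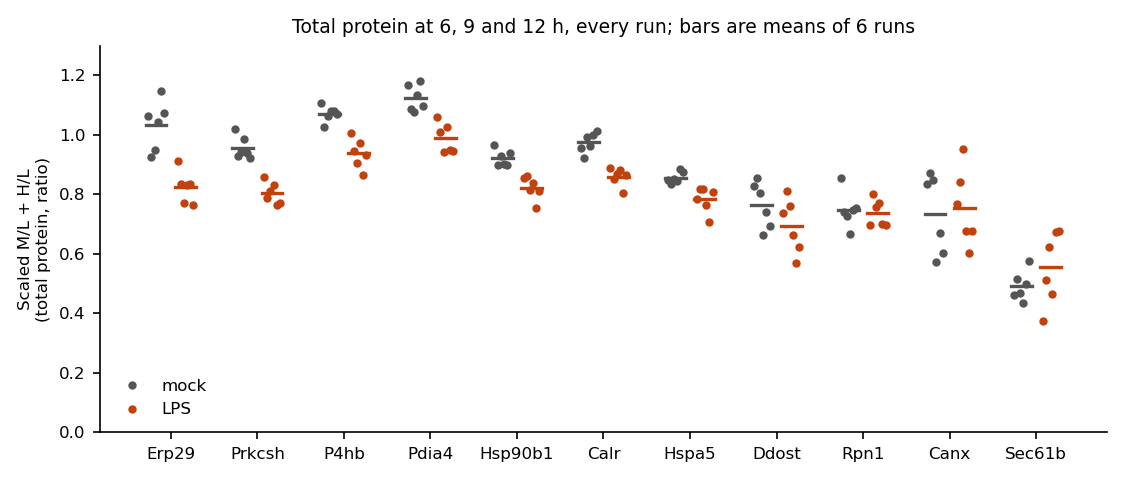
Scaled total protein (M/L plus H/L, a ratio on a linear axis from 0) of 11 members in the 6 mock and 6 LPS runs at 6, 9 and 12 h, each point a run and each bar the mean of 6 runs. The runs of Erp29 separate by treatment (0.765 to 0.913 after LPS and 0.925 to 1.15 in mock), and those of Rpn1 do not (0.696 to 0.802 and 0.667 to 0.854).

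In new protein Hspa5 and Erp29 passed, in opposite directions. Late after LPS 2 of 34 members differed in H/L, where 12.3% of 3316 proteins passed, 10.6% higher and 1.75% lower. The member median was -0.061 and that of all proteins 0.034. New Hspa5 in mock runs was 0.0796 and 0.0868 at 6 h, 0.114 and 0.103 at 9 h and 0.137 and 0.131 at 12 h. In LPS runs it was 0.104 and 0.105 at 6 h, 0.166 and 0.133 at 9 h and 0.210 and 0.191 at 12 h. The arms overlap over all times but not within any of the 3 times. Hspa5 rose by 0.45 ± 0.10 (n = 6 per arm, limma adjusted p = 0.00221), a fold of 1.37, and the LPS run was the higher in 6 of 6 pairs matched for time and replicate. How many of all proteins reach 6 of 6 pairs, or separate within each time, was not counted here or below. New Erp29 in mock runs was 0.109 and 0.104 at 6 h, 0.110 and 0.122 at 9 h and 0.121 and 0.151 at 12 h. In LPS runs it was 0.0718 and 0.0697, 0.0812 and 0.0893 and 0.0998 and 0.0966 at the same times. Every LPS run lay below every mock run, as in 0.603% of all proteins. Erp29 fell by 0.50 ± 0.13 (limma adjusted p = 0.0112), a fold of 0.708, lower in 6 of 6 pairs. The 0 h signal under these values was 0.0711 and 0.0706 for Hspa5 and 0.0541 and 0.0686 for Erp29. With the 0 h signal subtracted the difference of Hspa5 was 1.19 (limma adjusted p = 0.0933) and the call of Erp29 held.

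The other folding enzymes did not pass in new protein. Hsp90b1 lay at 0.0808 to 0.120 (median 0.0947) in mock and 0.0750 to 0.117 (median 0.0931) in LPS runs, nearly the same range, with a difference of -0.052 ± 0.099 (limma adjusted p = 0.884). Pdia4 lay at 0.101 to 0.116 (median 0.109) and 0.0672 to 0.117 (median 0.0928), with -0.24 ± 0.13 (limma adjusted p = 0.319). P4hb lay at 0.0746 to 0.115 (median 0.0905) and 0.0693 to 0.101 (median 0.0785), with -0.21 ± 0.11 (adjusted p = 0.276). All 3 overlap between treatments. The log2 ratio of new Hspa5 to new Hsp90b1 within a run, a pair chosen after its values were seen and not tested, was 0.12 ± 0.20 (SD, n = 6) in mock and 0.62 ± 0.25 in LPS runs. That to new Pdia4 was -0.015 ± 0.33 and 0.68 ± 0.48. Among the membrane members the estimates ran from -1.37 ± 0.61 for Stt3a, on few peptide pairs, to 0.68 ± 0.95 for Sec61a1, and none passed.

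H/M, in which the light reference and the run factor cancel, gave the same call for Hspa5 and none for another member. Hspa5 H/M in mock runs was 0.0963 and 0.111 at 6 h, 0.148 and 0.122 at 9 h and 0.178 and 0.167 at 12 h. In LPS runs it was 0.147 and 0.142, 0.236 and 0.226 and 0.332 and 0.308 at the same times. Each LPS pair lay above the mock pair of its time. The difference was 0.72 ± 0.11 (limma adjusted p = 3.98e-05), a fold of 1.64, where 12.4% of 3316 proteins passed (11.4% higher). Hspa5 was higher in 6 of 6 pairs, a count not made for all proteins. Its values at 24 h, where H/M was not tested, were 0.386 and 0.397 in mock and 0.664 and 0.653 in LPS runs, and at 0 h 0.0973 and 0.0995. Manf stood at 0.34 ± 0.14 and Pdia3 at 0.19 ± 0.11, which did not pass (limma adjusted p = 0.127 and 0.373). P4hb had 0.00040 ± 0.091 (adjusted p = 0.999) and Erp29 -0.26 ± 0.14 (adjusted p = 0.314).

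**Figure D4:**
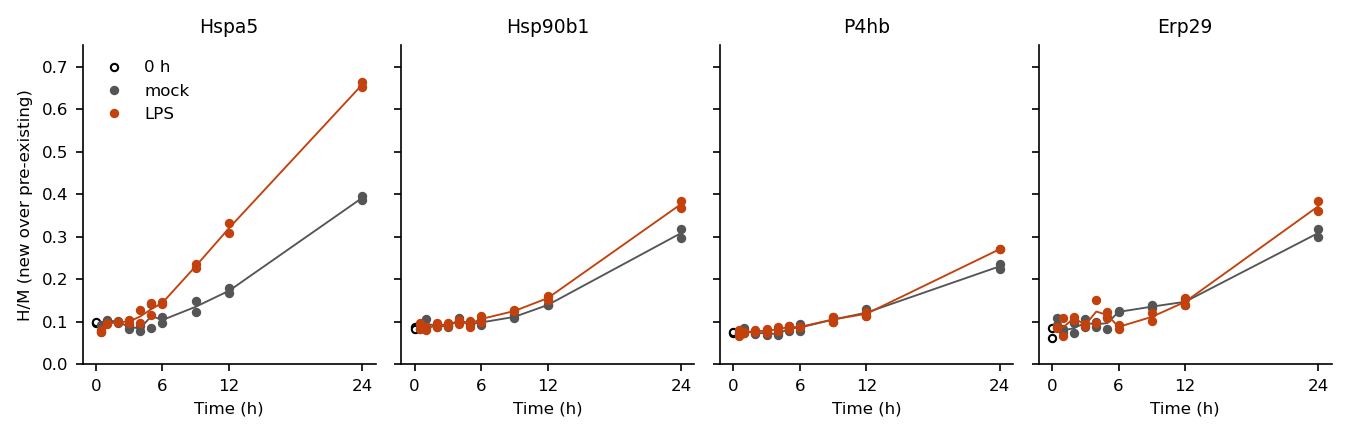
H/M (new over pre-existing protein, a ratio on a linear axis from 0) of Hspa5, Hsp90b1, P4hb and Erp29 in every run against time in hours. Points are runs (open for 0 h), and lines join the means of the 2 replicates. Both LPS runs of Hspa5 lie above both mock runs at 6, 9, 12 and 24 h, where they reach 0.653 and 0.664 against 0.386 and 0.397.

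The rate at which the M share was lost between 0.5 and 12 h put this in units of time. In mock cells log2 of the M share of Hspa5 changed by -0.00865 ± 0.0017 per h (0.598% per h) and after LPS by -0.0245 per h (1.68% per h). The difference was -0.0158 ± 0.0024 (limma adjusted p = 4.31e-06, 18 runs per arm), and Hspa5 was 1 of 34 members called where 13.9% of 3342 proteins were (12.1% with the more negative slope after LPS). Replacement in mock cells was slow for most members, with a median of -0.0055 per h against -0.0082 over all proteins (-0.0028 against -0.0055 over 0.5 to 6 h alone). Among members with small errors Txndc5 (-0.0108 ± 0.0023) and Calr (-0.00851 ± 0.0014) had steeper slopes than P4hb (-0.00562 ± 0.00092) and Hsp90b1 (-0.00499 ± 0.0010), while Pdia4 stood at 0.00051 ± 0.0014, with no loss measurable. These slopes were not tested against each other. The H share of the members reached medians of 14.7% in mock and 16.0% in LPS runs at 12 h and 25.5% and 29.1% at 24 h, from 10.8% at 0 h. With the deposited normalised ratios the medians of all proteins moved from 0.034 to -0.48 in H/L and from 0.079 to -0.45 in H/M. Hspa5 stood above them at 0.0086 and 0.24 and did not pass (adjusted p = 0.971 and 0.255). Over 0.5 to 6 h alone its slope differed by -0.0106 (adjusted p = 0.250). Without the run factor its new protein stood at 0.62 (adjusted p = 0.0867) and from summed intensities at 0.53 (adjusted p = 0.129), and new Erp29 at -0.33 (0.631) and -0.37 (0.369).

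Promoter sequences were searched for exact matches to the ER stress element that the unfolded protein response acts on. RefSeq promoters (build GRCm38.p6, 250 bases before to 50 after the start of the gene) were given for 33 of the 40 genes. The motif, CCAAT followed after 9 bases of any kind by CCACG and searched on both strands, lay in 6 of the 33 (18.2%) and in 37 of 27025 genes (0.137%). They are shown with 20 bases on either side, 5′ to 3′ on the strand of the gene and upstream of its start, with the motif or its reverse complement in capitals:
Hspa5 (chr2:34772005-34772063, + strand, 65 to 47 bases before the start): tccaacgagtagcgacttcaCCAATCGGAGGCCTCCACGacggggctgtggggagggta
Hsp90b1 (chr10:86705513-86705571, − strand, reverse complement, 107 to 89 bases before): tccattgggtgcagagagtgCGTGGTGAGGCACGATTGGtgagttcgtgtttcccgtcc
Hsp90b1 (chr10:86705618-86705676, − strand, 212 to 194 bases before): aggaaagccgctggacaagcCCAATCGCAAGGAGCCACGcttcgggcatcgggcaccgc
Calr (chr8:84847055-84847113, − strand, reverse complement, 162 to 144 bases before): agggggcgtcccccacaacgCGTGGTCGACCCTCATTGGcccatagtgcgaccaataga
Canx (chr11:50325780-50325838, − strand, 145 to 127 bases before): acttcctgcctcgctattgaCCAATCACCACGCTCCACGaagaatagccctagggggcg
Dnajc3 (chr14:118937807-118937865, + strand, 105 to 87 bases before): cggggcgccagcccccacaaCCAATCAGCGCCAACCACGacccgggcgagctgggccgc
Pdia6 (chr12:17266471-17266529, + strand, 98 to 80 bases before): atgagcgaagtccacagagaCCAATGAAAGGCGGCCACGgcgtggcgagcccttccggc
Of these 6 genes Hspa5 was called higher in new protein. The differences of the other five were -0.052 for Hsp90b1, -0.071 for Calr, -0.026 for Canx, -0.32 for Dnajc3 and -0.0040 for Pdia6, and none passed. The element is known from genes of this kind, as outlined above, so its higher share among the members is no finding of these data. Genes without a given promoter and inexact matches were left out. A match of letters is a description of the sequence and shows no binding.

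**Figure D5:**
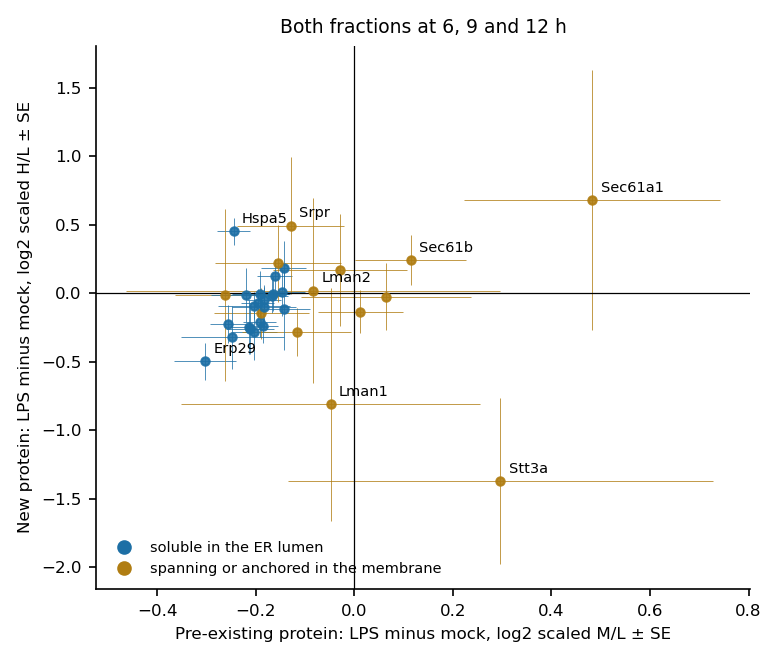
Difference in new protein (log2 scaled H/L) against difference in pre-existing protein (log2 scaled M/L), LPS minus mock over 6 to 12 h, for the 34 tested members, with bars of 1 standard error and colours for topology. Hspa5 sits at 0.45 in new and -0.25 in pre-existing protein and Erp29 at -0.50 and -0.30.

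At 24 h, a time given in the labels while the series' design text speaks of times up to 12 h, more members passed in pre-existing protein. In limma's test 22 of 34 members fell and Sec61b rose, 23 in all, where 37.9% of 3136 proteins passed (27.6% lower, 10.3% higher). The member median was -0.40 and that of all proteins -0.066. All 21 soluble members fell, with a median of -0.44. Dnajc3, an inhibitor of the stress kinase PERK, was 0.817 and 0.809 in mock and 0.507 and 0.453 in LPS runs, and fell by 0.76 ± 0.18 (n = 2 per arm, limma adjusted p = 0.00174). Erp29 was 0.938 and 1.25 in mock and 0.659 and 0.639 in LPS runs and fell by 0.74 ± 0.11 (limma adjusted p = 7.47e-06). Hspa5 was 0.736 and 0.796 in mock and 0.580 and 0.542 in LPS runs (-0.45 ± 0.057, limma adjusted p = 1.22e-06). Hsp90b1 was 0.857 and 0.907 against 0.658 and 0.631 (-0.45 ± 0.058, limma adjusted p = 1.47e-06), and P4hb 0.928 and 1.07 against 0.737 and 0.748 (-0.42 ± 0.058, adjusted p = 3.13e-06). In each of these LPS and mock runs lay apart, as they did in this direction for 38.9% of all proteins.

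Members called in pre-existing protein at 24 h and not late included Hyou1, Sdf2l1 and Fkbp2. Hyou1 was 0.795 and 0.901 in mock and 0.640 and 0.615 in LPS runs (-0.43 ± 0.11, limma adjusted p = 0.00348). Sdf2l1 was 1.05 and 1.02 against 0.693 and 0.810 (-0.46 ± 0.13, limma adjusted p = 0.00572). Fkbp2 was 0.739 and 0.901 against 0.592 and 0.612 (-0.44 ± 0.090, limma adjusted p = 0.000437). All 3 were lower in both LPS runs than in both mock runs. The other soluble members fell by between 0.36 for Uggt1 and 0.57 for Dnajb11. Dnajb11 was 1.04 and 0.838 in mock and 0.678 and 0.580 in LPS runs, Uggt1 0.954 and 1.03 against 0.785 and 0.763, Calr 0.860 and 0.951 against 0.662 and 0.641, Prkcsh 0.805 and 0.868 against 0.663 and 0.634 and Ganab 0.819 and 0.859 against 0.639 and 0.594. Among the isomerases and the oxidase Pdia4 was 0.985 and 1.08 in mock and 0.772 and 0.763 in LPS runs, Pdia3 0.881 and 0.921 against 0.674 and 0.645, Pdia6 0.832 and 0.919 against 0.675 and 0.666, Txndc5 0.780 and 0.865 against 0.652 and 0.622, Erp44 0.772 and 0.783 against 0.600 and 0.524 and Ero1l 0.973 and 1.21 against 0.818 and 0.830. Manf was 0.961 and 1.11 against 0.720 and 0.764 and Ppib 0.859 and 1.09 against 0.713 and 0.749. In all of these both LPS runs lay below both mock runs, as in 38.9% of all proteins.

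Membrane members at 24 h gave 1 call in each direction. Sec61b was 0.357 and 0.252 in mock and 0.558 and 0.563 in LPS runs, and rose by 0.90 ± 0.19 (limma adjusted p = 0.000702), a fold of 1.87. It is measured by 2 unique peptides and a median of 11 peptide pairs per run. Spcs3 was 0.867 and 0.786 in mock and 0.578 and 0.541 in LPS runs, and fell by 0.56 ± 0.18 (limma adjusted p = 0.0144). Rpn1, at 0.703 and 0.633 against 0.628 and 0.631, had -0.084 ± 0.15 (limma adjusted p = 0.711) and did not pass, nor did Sec61a1 (0.573 and 0.378 against 0.464 and 0.716, 0.31 ± 0.42) and Stt3a (0.602 and 0.171 against 0.662 and 0.420, 0.72 ± 0.69).

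In total protein at 24 h 21 members fell against mock and Sec61b rose, where 37.8% of 3095 proteins passed, 20.1% lower and 17.7% higher. Over the soluble members the median total was then 1.103 and 1.242 in mock and 0.952 and 0.917 in LPS runs. Both treatments lay above the 0.889 and 0.874 of the 0 h runs. Total Sec61b was 0.571 and 0.451 in mock and 0.949 and 0.930 in LPS runs (0.89 ± 0.17, limma adjusted p = 0.000235). Total Pdia4 was 1.15 and 1.27 in mock and 0.941 and 0.918 in LPS runs (-0.38 ± 0.055, limma adjusted p = 8.11e-06), and total Hspa5 1.02 and 1.13 against 0.955 and 0.917 (-0.20 ± 0.061, adjusted p = 0.0115). The runs lay apart in all 3, and the share of all proteins with such runs is not given for total protein. In pre-existing protein at 24 h LPS runs lay below mock runs without overlap in 38.9% of all proteins. With the replicate block Erp44 also fell (-0.34 ± 0.072, limma adjusted p = 0.000451) and calnexin rose (0.34 ± 0.097, adjusted p = 0.00628). In new protein none of the 34 members passed limma's test at 24 h, and 1, Sec61b, had an unadjusted p under 0.05, where 10.2% of 3095 proteins passed. New Sec61b was 0.214 and 0.199 against 0.391 and 0.368 (0.87 ± 0.32, limma adjusted p = 0.0847), and new Hspa5 0.286 and 0.335 against 0.375 and 0.375 (0.28 ± 0.17, adjusted p = 0.437).

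Without the run factor no member passed at 24 h, and the all-protein medians moved to 0.17 in pre-existing and 0.25 in total protein, with total Hspa5 (0.039) and Ppib (0.0074) above 0. Leaving out 1 of the 4 runs at 24 h ended the pre-existing calls of Erp44 (without LPS replicate 2, adjusted p = 0.0707), Hyou1 and Ppib (without mock replicate 2, 0.0631 and 0.114), Sdf2l1 (without LPS replicate 1, 0.0970) and Spcs3 (without LPS replicate 2 or mock replicate 1, up to 0.102), and in total protein 11 of 22 calls held through all 4, that of Hspa5 not among them (adjusted p up to 0.209).

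Whether the differences at 24 h were larger than those over 6 to 12 h was tested directly, by contrasts chosen after the data had been seen. In pre-existing protein the 24 h difference was the more negative for 11 of 34 members, all of them soluble, and the more positive for Sec61b, where 17.3% of 3062 proteins passed (14% lower, 3.27% higher). In total protein it was lower for Pdia4 and Hsp90b1 and higher for Sec61b, where 17% of 2987 proteins passed (10.5% lower, 6.49% higher). In new protein the late difference lay above that of 1 to 3 h for Hspa5 and below it for Erp29, where 7.22% of 3144 proteins passed (6.3% higher, 0.922% lower).

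The soluble members did not start below mock. At 0.5 h their median M/L was 1.04 and 1.02 in the 2 LPS runs, 0.857 and 0.892 in the mock runs and 0.807 and 0.821 in the 0 h runs. M protein was made before 0 h, so values above those of 0 h are no gain by synthesis. What raised them was not tested. At 0.5 and 1 h together, a comparison chosen after these values were seen, 15 of 34 members were called higher after LPS, where 6.45% of 3227 proteins were called (4.37% higher), with medians of 0.19 and -0.021. In 19 members LPS runs lay above mock runs without overlap, as in 9.95% of all proteins. Pdia4 lay at 0.982 to 1.04 (median 1.02) in the 4 mock runs and 1.14 to 1.23 (median 1.17) in the 4 LPS runs. It was higher by 0.22 ± 0.035 (limma adjusted p = 0.000670). Hsp90b1 lay at 0.801 to 0.821 (median 0.807) against 0.912 to 0.985 (median 0.963), with 0.24 ± 0.041 (limma adjusted p = 0.00118). Calr lay at 0.842 to 0.904 (median 0.858) against 0.959 to 1.06 (median 1.03), with 0.24 ± 0.040 (limma adjusted p = 0.00118), and Hspa5 at 0.753 to 0.787 (median 0.770) against 0.809 to 0.926 (median 0.870), with 0.17 ± 0.041 (adjusted p = 0.0117). All 4 were apart, and the 15 were soluble members. By time the median difference of the soluble members was 0.22 at 0.5 h, 0.20 at 1 h, -0.087 at 2 h, -0.10 at 3 h, -0.054 at 4 h, -0.073 at 5 h, -0.15 at 6 h, -0.23 at 9 h, -0.23 at 12 h and -0.44 at 24 h. The 0.22 at 0.5 h was about as large as the -0.23 at 9 and 12 h, in the other direction. Whether the source of the early difference has a part in the late one was not tested. None of the 21 was below 0 at 0.5 or 1 h, and all 21 were at 2, 3, 6, 9, 12 and 24 h. Of all proteins 1894 of 3448 were below 0 at 0.5 h, 1762 of 3399 at 1 h, 1611 of 3325 at 2 h and 1815 of 3136 at 24 h. The 21 were measured in the same 2 runs per group and are not independent of each other. The median of all proteins stayed between -0.066 and 0.0085. Without the run factor no member passed at 0.5 and 1 h and from summed intensities 1 did, 8 did without the mock 0.5 h replicate 1, and 7 of the 15 calls held whichever of the 8 runs was left out, that of Hspa5 not among them (adjusted p up to 0.0588). With the replicate block Erp29, Erp44 and Sdf2l1 were called higher too (limma adjusted p = 0.0307, 0.0150 and 0.0307).

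New protein over 1, 2 and 3 h gave 0 calls among the 34 members by limma and 0 with an unadjusted p under 0.05, where 0.475% of 3371 proteins passed. New Hspa5 differed by -0.024 then. In mock cells total protein at 6 to 12 h was higher than at 0 h for 3 of 34 members, where 11.1% of 3242 proteins passed (7.19% higher). Txndc5 was 0.859 and 0.753 at 0 h and 0.904 to 1.01 (median 0.956) later, with 0.24 ± 0.074 (limma adjusted p = 0.0377). Calr was 0.866 and 0.874 at 0 h and 0.922 to 1.01 (median 0.978) later, with 0.16 ± 0.051 (limma adjusted p = 0.0409), and Ppib 0.944 and 0.967 against 1.05 to 1.19 (median 1.14), with 0.24 ± 0.074 (adjusted p = 0.0415). The later runs lay above both 0 h runs in each, and the share of all proteins in which they did was not counted. The member median was 0.11 and that of all proteins -0.0072. With the replicate number as a block 8 members passed, 6 higher (also Hsp90b1, Pdia3 and Sdf2l1) and 2 lower (Canx and Rpn1). The share of all proteins under that block is not given here. No member passed without the run factor (Calr then at -0.062, all proteins at -0.23). Leaving out the 0 h replicate 2, the mock 6 h replicate 1, the mock 9 h replicate 2 or the mock 12 h replicate 2 ended all 3 calls. Without the 0 h replicate 1 or the mock 6 h replicate 2 those of Calr and Ppib ended.

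Other genes of the pathway, from lists chosen beside the members, gave calls of both kinds. In pre-existing protein late, where 13.6% of all proteins fell and 3.53% rose, none of 9 tested proteins of targeting and translocation passed, 3 of 12 other folding enzymes and chaperones fell, 1 of 9 of ER-associated degradation fell, and of 6 of glycosylation Alg5, which makes the glucose donor of the glycan precursor, rose (0.38 ± 0.12, limma adjusted p = 0.0411). The 3 that fell were Cnpy2 (-0.13 ± 0.033, adjusted p = 0.00612), Creld2 (-0.20 ± 0.054, adjusted p = 0.0123) and Cnpy4 (-0.27 ± 0.079, adjusted p = 0.0174), and the lectin Os9, which hands glycoproteins to degradation, fell by 0.25 ± 0.079 (limma adjusted p = 0.0284). At 24 h, where 27.6% of all proteins fell, 7 of 11 of the other folding enzymes and 7 of 9 of ER-associated degradation fell, none of the 9 of targeting and translocation passed, and neither did any of 5 of cargo traffic. In new protein late, where 10.6% of all proteins rose, 1 of 9 tested genes of targeting and translocation, 1 of 6 of glycosylation and 1 of 11 other folding enzymes did: Sec61g, the third subunit of the channel (0.72 ± 0.24, limma adjusted p = 0.0493), Gmppb, which makes GDP-mannose (0.84 ± 0.18, adjusted p = 0.00154), and Prdx4, the peroxiredoxin of the ER (0.64 ± 0.19, adjusted p = 0.0281). The H/M of Prdx4 rose by 1.06 ± 0.22 (limma adjusted p = 0.00113), more than that of Hspa5 as a value, and the 2 were not tested against each other. The lists of the ER membrane protein complex (8 genes) and of stress sensors (7 genes) had no match among the first gene names and were not analysed here.

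Markers of the dendritic cells and of other cells moved in the same comparisons. In pre-existing protein 6 of 8 tested macrophage markers fell late (median -0.42) and 6 at 24 h (median -0.68), and of 8 granulocyte markers 4 fell and 1 rose late (median -0.37) and 5 fell at 24 h (median -0.72), against the same 13.6% and 27.6% of all proteins. In total protein 5 macrophage markers fell and Cd14 rose (0.93 ± 0.075, limma adjusted p = 9.53e-10) late, and at 24 h 5 fell while Cd14 (0.61 ± 0.13) and Fcgr1 (0.95 ± 0.37) rose. Of the granulocyte markers 4 fell and S100a9 (0.15 ± 0.037) and Hp (0.76 ± 0.12) rose in total protein late, and at 24 h 5 fell and Hp rose (2.04 ± 0.21, limma adjusted p = 3.54e-08). Of 6 tested dendritic markers Cd74, the invariant chain, fell in pre-existing protein late (-0.75 ± 0.19, limma adjusted p = 0.00696) and Cd74, Itgax and Fscn1 at 24 h (-1.68 ± 0.33, -0.50 ± 0.14 and -0.37 ± 0.14), while in total protein Cd40 and Fscn1 rose late (2.77 ± 0.28 and 0.60 ± 0.11) and at 24 h, when Cd74 and Itgax fell (-0.69 ± 0.18 and -1.03 ± 0.15). The 10 measured dendritic markers took 0.0612% to 0.0782% of M plus H intensity in late mock and 0.0671% to 0.102% in late LPS runs, and 0.0966% and 0.114% against 0.0878% and 0.0991% at 24 h. The summed granulocyte markers, all 11 measured, took 1.26% to 2.29% of M plus H intensity in late mock and 1.41% to 2.36% in late LPS runs, and 0.988% and 1.07% against 0.687% and 0.784% at 24 h. The macrophage markers (9 of 10 measured, Mertk not) took 0.606% to 0.848% and 0.557% to 0.760% late, and 0.809% and 0.964% against 0.550% and 0.569% at 24 h. Late the 2 treatments overlap in these 3 sums, and at 24 h LPS runs lie below mock runs in the granulocyte and macrophage sums. Of 6 erythroid and platelet markers 3 were measured, and their sum overlapped between treatments late and at 24 h. Among them Pf4 fell in pre-existing protein late (-0.83 ± 0.15) and at 24 h (-1.70 ± 0.25), and Ca2 at 24 h (-0.54 ± 0.17). The part of all these markers in the fall of the members was not tested.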

How the data were processed

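Pulsed SILAC mass spectrometry of 88 samples was deposited as protein group tables, whose column names, per the file headers, are those of MaxQuant. Per the file headers the authors' tables give ratios (M/L, H/L, H/M, as measured and normalised) with counts of the peptide pairs behind them, label intensities, iBAQ intensities and sequence lengths (the other value used). The genome build mm9 is listed in the submitters' processing notes. Version and settings of the search were not given in the sources used here. The design text describes times up to 12 h and the labels add 24 h.

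Of 6266 trypsin groups 5899 were kept after removal of reverse hits, contaminants and groups known by site. The deposited un-normalised ratios were divided by the run factor (log2 -0.681 to 0.692 over 42 runs), except H/M, and taken to log2. New protein was H/L, pre-existing protein M/L and total protein their sum. limma 3.58.1 in R 4.3.3 fitted a mean for each of the 21 groups of 2 runs, all runs sharing the estimate of spread, with at least 4 of 6 values per arm. Contrasts were late (6, 9, 12 h), early (1, 2, 3 h) and 24 h, LPS minus mock, and late minus 0 h in mock cells. Slopes of log2 M share, -log2(1 + H/M), on time used 0.5 to 12 h with at least 12 of 18 runs. Benjamini-Hochberg adjustment ran over all proteins of a comparison, with a call at 0.05. Scripts were tested on simulated data with known changes.

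The numbers of the replicates pair the runs: deviations of same-numbered mock and LPS runs from their group means correlated at all 10 times (r 0.354 to 0.591 over 2628 proteins for pre-existing and 0.254 to 0.460 over 2472 for new protein), and a fit with that block is among the alternatives. Alternatives also changed the scaling, the ratio, the filter, the background and the runs left out. Members called under an alternative are mostly given without the share of all proteins under it. They then show how far calls hold and no excess over all proteins. The members and all lists were chosen with earlier results of these data known. Values of called members in pre-existing protein, of Hspa5, Hsp90b1, Pdia4, P4hb, Sec61a1, Rpn1 and Stt3a there, and of members called in new protein and H/M are given in every run or, for 6 runs per arm, by range and median. Other calls are given by count or with examples. The differences between windows, the pairs of members, the topology grouping and the comparison at 0.5 and 1 h were added after the data had been seen. Python 3.11.15 with pandas 2.3.3 and matplotlib 3.10.9 did the rest.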

Additional observations from a re-analysis of the deposited data

Results flagged for a closer look

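The contrast of LPS with mock differed between windows for a set of members, by a test of the difference itself (limma, Benjamini-Hochberg over all proteins), with contrasts chosen after the data had been seen. Pre-existing protein differed between 24 h and 6 to 12 h for 12 of 34 members, where 17.3% of 3062 proteins did. The log2 difference of differences was -0.24 ± 0.057 (SE) for Pdia4 (adjusted p = 0.00538), -0.27 ± 0.067 for Hsp90b1 (0.00779), -0.23 ± 0.066 for P4hb (0.0185), -0.28 ± 0.065 for Calr (0.00500), -0.20 ± 0.066 for Hspa5 (0.0347) and -0.28 ± 0.065 for Pdia3 (0.00407). It was -0.44 ± 0.12 for Erp29 (adjusted p = 0.0173), -0.22 ± 0.069 for Pdia6 (0.0334), -0.31 ± 0.071 for Manf (0.00345), -0.23 ± 0.077 for Ganab (0.0404) and -0.36 ± 0.097 for Dnajb11 (0.0117). In all of these 11 the 24 h difference was the more negative. Sec61b moved the other way, by 0.79 ± 0.22 (adjusted p = 0.0173), with 0.90 at 24 h and 0.11 late. With the replicate block Fkbp2, Ero1l and Erp44 passed too. The call of Pdia3 held whichever of the 16 runs was left out, while 4 members passed without the LPS 24 h replicate 2 and 2 without the mock 24 h replicate 2.

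In total protein the same difference was -0.19 ± 0.064 for Pdia4 (adjusted p = 0.0439), -0.20 ± 0.070 for Hsp90b1 (0.0472) and 0.74 ± 0.20 for Sec61b (0.0124), 3 of 34 members where 17% of 2987 proteins passed. With the replicate block 6 members passed, a count given without the share of all proteins, and no call held through all single runs left out.

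New protein differed between 6 to 12 h and 1 to 3 h for 2 of 34 members, where 7.22% of 3144 proteins did. Hspa5 had 0.45 late and -0.024 early, a difference of 0.48 ± 0.14 (adjusted p = 0.0404). Erp29 had -0.50 late and 0.15 early, a difference of -0.65 ± 0.19 (adjusted p = 0.0369). Of 24 omissions of a single run, 16 ended the call of Hspa5 and 15 that of Erp29.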

How the results depend on the processing

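Counts are of members called. Except where given, the share of all proteins called under the same setting is not set beside them. They show how far the calls hold and no excess over all proteins. Without the run factor 0 passed in new, pre-existing and total protein late, in pre-existing and total protein at 24 h, in total protein of mock cells, at 0.5 and 1 h and in the 3 differences between windows. Signs then turned for pre-existing protein late of Pdia6 (9.22e-05), Manf (0.0044), Uggt1 (0.019) and Ero1l (0.022), total protein late of Hspa5 (0.035), Ppib (0.0025), Pdia3 (0.014), Pdia6 (0.017) and Manf (0.042), total protein at 24 h of Hspa5 (0.039) and Ppib (0.0074), and Calr in mock cells (-0.062). All-protein medians moved with it, from -0.020 to 0.15 in pre-existing protein late, from -0.066 to 0.17 at 24 h and from -0.0072 to -0.23 in mock cells.

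With the deposited normalised ratios 14 members fell in new protein late, 6 fell in H/M, 7 passed in total protein at 24 h (1 higher), 32 rose in mock cells, 16 fell in new protein late against early, and 0 passed for the slope and for total protein at 24 h against late, where Pdia4 turned to 0.017 beside an all-protein median of 0.19 (-0.0066 otherwise). Hspa5 turned to -0.29 in new protein late against early, beside an all-protein median of -0.76 (0.051 otherwise). These ratios moved all proteins: medians were -0.48 in new, -0.27 in total protein and -0.45 in H/M late and 1.25 in mock cells, where 2917 of 3242 proteins passed, all higher, and 708 of 3144 passed in new protein late against early (6.5% higher). The all-protein share of higher calls moved too: from 85.8% to 23.3% in new protein late (96.8% without the run factor), from 20.6% to 54.1% in pre-existing protein late, from 51.5% to 23.4% in total protein late (91.6% without the factor) and from 91.7% to 29.3% in H/M. At 24 h it moved from 77.2% to 60.4% in new, from 27.2% to 49.0% in pre-existing, and without the factor from 46.9% to 83.0% in total protein.

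Summed intensities gave 0 in new protein late, 7 in pre-existing and 3 in total protein late, 12 in total protein at 24 h, 0 in mock cells, 1 at 0.5 and 1 h, and 3, 1 and 0 in the differences between windows (pre-existing, total, new). With the 0 h signal subtracted 1 of 21 tested passed in new protein late, 2 of 22 in H/M, 0 of 13 for the slope (Hspa5 not among those tested) and 0 of 14 in new protein late against early. The slope gave 0 over 0.5 to 6 h and 2 with the intercept fixed at 0 h. In mock cells 6 passed with at least 3 peptide pairs and 5 with complete values. Centred on the quantity's own median, 1 passed in new protein late against early. The members' share of iBAQ was 2.27% with AspN and 2.20% with LysN.

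With the replicate block 8 passed in mock cells and 6 in total protein at 24 h against late, 20 in pre-existing and 17 in total protein late, and it moved no other count by over 1.5 times. Leaving out runs or a replicate number gave 0 to 2 in new, 0 to 20 in pre-existing and 0 to 17 in total protein late, 0 to 1 in H/M, 0 in new protein early and at 24 h, 21 to 22 in pre-existing and 16 to 20 in total protein at 24 h, 0 to 4 in mock cells, 8 to 12 at 0.5 and 1 h, 1 for the slope, and 2 to 14, 0 to 9 and 0 to 2 in the differences between windows. The median mock slope ranged from -0.00625 to -0.00618 there and was -0.0028 over 0.5 to 6 h. The zeros late came from leaving out a whole replicate number, which leaves 1 run per group and no scatter within groups. The spread was then taken from scatter among the times, with few degrees of freedom. Those zeros cannot show whether the calls depend on the replicate. The cause of these changes was not tested. Sec61a1 and Stt3a rest on medians of 2.5 and 3.5 peptide pairs per run.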
